A study of Mus musculus with 4 samples.

Results

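The members were all probe sets of the Mouse 430 2.0 array that the annotation assigns to Notch1, Notch2, Notch3, Notch4, Jag1, Jag2, Dll1, Dll4, Hey1 or Heyl. These are 10 of 18193 annotated genes and 21 of 45037 probe sets, 9 for receptors, 8 for ligands and 4 for targets, and none carries a second symbol. Cells carrying the surface antigen Sca-1, a mark of progenitor-like cells in the heart, were taken with magnetic beads and used without culture. Cyc cells came from FVB mice aged 6 weeks that overexpress CyclinT1 and Gαq under the αMHC promoter, which is active in cardiomyocytes. These double-transgenic mice are a model of heart failure. Wt cells came from wildtype littermates of the same strain and age. Animals of either sex were used, each genotype had 2 arrays, and an array stands for cells combined from 2 to 3 animals.

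In Sca-1 cells of failing hearts, no probe set of the Notch receptors, their ligands or the Hey targets passed a fold change of 2 with an unadjusted p under 0.05 against healthy counterparts. Notch3, a receptor found mainly on mural cells, was brighter in Cyc than in Wt cells in both experiments and at both of its probe sets, with log2 differences of 0.27 and 0.41 in experiment 1 and of 1.23 and 1.35 in experiment 2. The 0.41 lies between a pair of values near background. Jag1, a ligand of these receptors, was brighter in Cyc cells in experiment 2 alone, by 0.80 and 0.72 on the log2 scale at its tested probe sets. This was not particular to Jag1. In the deposited values the tested probe sets of Notch2, Notch4 and Heyl were also brighter in Cyc cells in experiment 2 alone, by 0.04 to 1.08. Notch1, Jag2, Dll1 and Hey1 had the lower value in the Cyc pool of both experiments at every tested probe set, by 0.02 to 0.49 on the log2 scale, except that Dll1 turned to 0.04 in experiment 1 with quantile normalization. Of all tested probe sets 29.1% were lower in both experiments. The median difference over all of them was -0.10 in experiment 1, where Dll1 and Hey1 were at -0.03 and -0.04.

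Notch receptors are cleaved when a ligand on a neighbouring cell binds them. The freed intracellular part enters the nucleus, joins the DNA-binding protein Rbpj and switches on genes such as those of the Hes and Hey repressors. In blood vessels Notch1, Notch4, Dll4 and Jag1 act in endothelium, where they shape sprouting and arterial identity, and Notch3 acts in smooth muscle cells and pericytes, the mural cells of the vessel wall.

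Intensities are the deposited ones, on a linear scale, and can fall below 0. Differences and fold changes are Cyc minus Wt on the scale of log2(intensity + 16), which understates changes of dim probe sets. An intensity under 50 was taken as near background, and 17 of the 21 probe sets reached 50 on at least 2 arrays and were tested. The median intensity of all tested probe sets ranged from 197.6 to 280.5 between arrays. The spiked poly-A controls of the labelling step had median intensities of 250.1 and 213.9 in the Cyc and Wt pools of replicate 1 and were near 0 in both replicate 2 pools, at -1.14 and 0.57. Equal replicate numbers were therefore taken as the 2 experiments of the study, and each holds 1 Cyc and 1 Wt pool. Over all tested probe sets the median difference was -0.10 in experiment 1 and 0.06 in experiment 2. The gene of Sca-1 itself was not analysed here. As a check of the labels, the Gnaq probe set 1450115_at was at 723.6 and 492.3 in Cyc cells against 22.7 and 4.1 in Wt cells. The other 6 Gnaq probe sets assigned here overlapped between the genotypes. Ccnt1, the gene of CyclinT1, was lower in Cyc cells in both experiments, at 496.9 and 926.1 against 840.0 and 1086 at its brighter probe set. The study saw no major difference in either gene and set this Gnaq probe set aside. Whether it reads the transgene was not tested. The intensity of different probe sets cannot be compared, and the number of arrays limits the precision.

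RefSeq promoter windows of build GRCm38.p6, from 250 bases before to 50 bases after the start, were found for 8 of the 10 genes, in 9 windows. Those of Notch3 and Jag1 are shown because the 4 tested probe sets of these genes were the members whose call changed with the pools used. Capitals mark the GC box, GGGCGG or its reverse CCGCCC. The first lies at chr17:32166841-32167140 and the second at chr2:137116471-137116770, both on the minus strand and read 5′ to 3′ of the gene.
Notch3: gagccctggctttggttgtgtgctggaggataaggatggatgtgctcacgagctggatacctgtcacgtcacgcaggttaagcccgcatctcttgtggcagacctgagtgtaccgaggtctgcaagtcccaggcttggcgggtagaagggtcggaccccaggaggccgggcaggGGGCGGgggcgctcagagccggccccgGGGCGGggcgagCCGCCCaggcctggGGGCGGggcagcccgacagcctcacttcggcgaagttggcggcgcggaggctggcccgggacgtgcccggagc
Jag1: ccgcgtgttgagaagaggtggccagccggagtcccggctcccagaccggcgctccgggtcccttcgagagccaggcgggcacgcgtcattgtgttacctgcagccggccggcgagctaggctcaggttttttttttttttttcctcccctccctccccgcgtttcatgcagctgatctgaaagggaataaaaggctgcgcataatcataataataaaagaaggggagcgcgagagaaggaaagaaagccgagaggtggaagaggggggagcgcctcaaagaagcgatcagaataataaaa

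The Notch3 window has a GC content of 70% and holds 4 GC boxes, at 76, 49, 37 and 23 bases before the start, while that of Jag1 has 55.7% and holds none. Of all 32851 windows, 35.7% hold a GC box. The core letters of the Rbpj site, TGGGAA or TTCCCA, are in none of the 9 windows of the members and in 25.6% of all windows. The E-box CACGTG, to which Hey proteins can bind, is in none of the 9 and in 7.15% of all.

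Among the receptors, Notch1 was read at 1894 and 3649 in the Cyc pools of replicates 1 and 2 and at 2660 and 3783 in the Wt pools at probe set 1418634_at. Its other probe set, 1418633_at, was at 325.3 and 421.7 in Cyc cells against 438.1 and 520.7 in Wt cells. At the second both Cyc pools lay below both Wt pools, and at the first the genotypes overlapped. The log2 fold changes of -0.27 (standard error 0.41) and -0.35 (0.26) did not pass the thresholds (limma, adjusted p = 1 for both). Within experiments 1 and 2 the differences were -0.49 and -0.05 at the first and -0.41 and -0.29 at the second probe set.

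Notch2, a receptor of vessel wall, immune and many other cells, had intensities of 216.7 and 530.3 in Cyc cells against 315.9 and 277.4 in Wt cells at probe set 1455556_at. The Cyc pools lay on either side of both Wt pools, with differences of -0.51 in experiment 1 and 0.90 in experiment 2, and the log2 fold change was 0.19, its 95% confidence interval running from -1.02 to 1.41. The other Notch2 probe set, 1451889_at, was near background in every pool, at 10.2 or less.

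Notch3 gave 421.7 and 1322 in the Cyc pools of replicates 1 and 2 and 347.3 and 553.6 in the Wt pools at probe set 1421965_s_at. At 1421964_at it was read at 39.8 and 223.7 in Cyc cells against 26.0 and 78.3 in Wt cells, so both pools of experiment 1 lay under 50, near background, and the size of their difference is uncertain. The Cyc pool of replicate 2 was the brightest at both probe sets, and the Wt pool of replicate 2 exceeded the Cyc pool of replicate 1, so the genotypes overlapped. In linear terms Cyc cells were at 1.21 times the Wt intensity in experiment 1 at the first probe set, and at 2.39 and 2.86 times in experiment 2 at the first and second. The log2 fold changes were 0.75 (standard error 0.61) and 0.88 (0.82). Neither passed, with an unadjusted p of 0.276 and 0.335 in limma (adjusted p = 1). Under a fit that blocks on the experiment the standard errors fell to 0.28 for both, and the unadjusted p was 0.040 and 0.022 (limma, adjusted p = 0.704 and adjusted p = 0.666). The fold changes stayed below 2, so neither probe set passed both thresholds there. For 1421964_at this rests on the pseudocount. With a pseudocount of 1 in place of 16, a setting added to the blocked fit after the data had been seen, its log2 fold change was 1.05 with an unadjusted p of 0.020 (limma, adjusted p = 0.797), past both thresholds. That fit called 1 of the 17 members and 1.17% of all tested probe sets higher in Cyc cells. Without the block the same pseudocount gave 1.05 and no call. Notch3 is in the study's list of changed genes, drawn from these same arrays, so its direction here is not independent evidence.

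Single pools decided the Notch3 value. Without the Cyc pool of replicate 1 the log2 fold changes were 1.56 and 1.93, past both thresholds (unadjusted p = 0.0060 and 0.0073 in limma), and without the Cyc pool of replicate 2 they were -0.06 and -0.18. When 1 pool is left out, 1 experiment of a genotype is set against both of the other, which mixes genotype with experiment. Quantile normalization, a setting chosen for these differences after the data had been seen, gave 0.38 and 0.59 in experiment 1 and 1.21 and 1.18 in experiment 2.

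Notch4, an endothelial receptor, was at 1602 and 2287 in Cyc cells against 1629 and 2224 in Wt cells at probe set 1449146_at, with a log2 fold change of 0.01 (95% confidence interval from -0.81 to 0.83). Its pools parted by experiment and not by genotype, with differences of -0.02 and 0.04. At 1456263_at Notch4 had intensities of 54.1 and 84.7 in Cyc cells against 65.4 and 60.2 in Wt cells, and at 1436901_at it was near background in every pool, at 20.3 or less. The genotypes overlapped at each of its probe sets, and no test was made of the last.

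**Figure D1:**
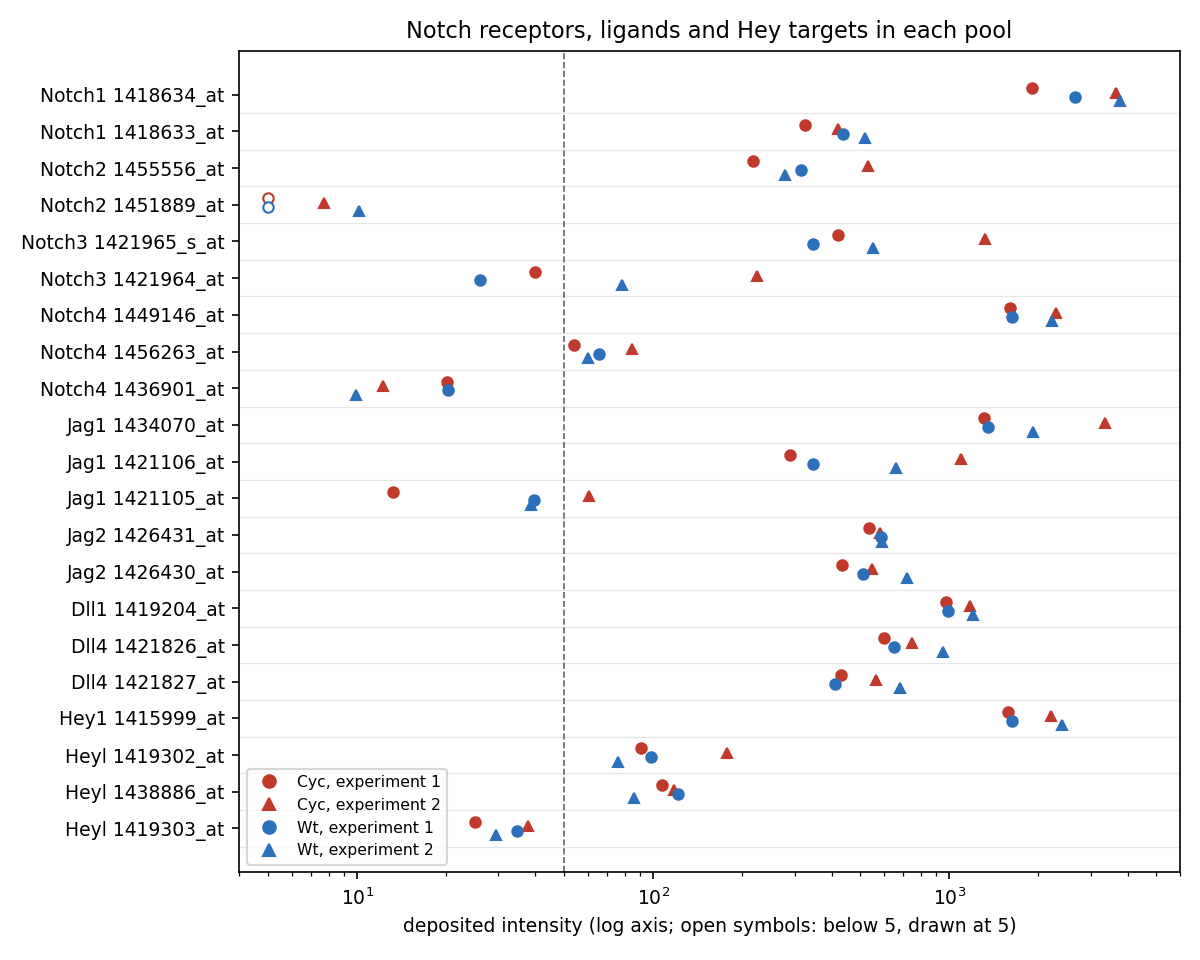
Deposited intensity (log axis) of the 21 probe sets in each of the 4 pools, Cyc drawn red and Wt drawn blue, experiment 1 as circles and experiment 2 as triangles. The dashed line marks 50, open symbols stand for values below 5, and the red triangle lies farthest right at both Notch3 probe sets and at all 3 Jag1 probe sets.

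Among the ligands, Jag1 was read at 1306 and 3351 in Cyc cells against 1351 and 1923 in Wt cells at probe set 1434070_at. At 1421106_at its intensities were 289.2 and 1096 in Cyc cells against 345.3 and 659.3 in Wt cells. In experiment 1 the Cyc pool was the lower one at both, with differences of -0.05 and -0.24, and in experiment 2 the Cyc pool was the brightest of all 4, with 0.80 and 0.72. The log2 fold changes of 0.37 (standard error 0.52) and 0.24 (0.71) did not pass, and without the Cyc pool of replicate 1 they were 1.05 and 1.17 and passed both thresholds. Without the Cyc pool of replicate 2 they were -0.30 and -0.69. The third probe set, 1421105_at, was above 50 only in the Cyc pool of replicate 2, at 60.8. Replicate 1 of Cyc stood at 13.2 and the Wt pools at 39.6 and 38.5, and no test was made.

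Jag2, a ligand of the same Jagged class, had intensities of 537.2 and 583.8 in Cyc cells against 586.9 and 591.6 in Wt cells at probe set 1426431_at. Both Cyc pools lay below both Wt pools there, but by little, with a log2 fold change of -0.07 (95% confidence interval from -0.66 to 0.52). At 1426430_at Jag2 was at 434.8 and 548.7 in Cyc cells against 511.2 and 716.7 in Wt cells, with differences of -0.23 and -0.38 in experiments 1 and 2.

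Dll1 and Dll4 belong to the Delta-like class of ligands, and Dll4 restrains vessel sprouting. Dll1 had 1 probe set, 1419204_at, with intensities of 972.1 and 1178 in Cyc cells against 992.0 and 1202 in Wt cells. The Cyc pool was lower by 0.03 on the log2 scale in each experiment, and the 95% confidence interval of the fold change ran from -0.69 to 0.64. Dll4 was at 601.0 and 750.6 in Cyc cells against 652.4 and 950.8 in Wt cells at 1421826_at, and at 430.5 and 564.1 in Cyc cells against 411.3 and 682.6 in Wt cells at 1421827_at. The Wt pool of replicate 2 was the brightest at both, and the log2 fold changes were -0.23 (standard error 0.30) and -0.10 (0.34). In experiment 1 the probe sets of Dll4 differed in sign, at -0.12 and 0.06.

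Among the targets, Hey1, a repressor that Notch induces in endothelium, was read at 1582 and 2208 in Cyc cells against 1623 and 2398 in Wt cells by its only probe set, 1415999_at. Its differences were -0.04 and -0.12 in experiments 1 and 2, and the 95% confidence interval of its log2 fold change of -0.08 ran from -0.93 to 0.78. Heyl, a related repressor of vascular smooth muscle, had intensities of 90.9 and 177.5 in Cyc cells against 97.9 and 75.8 in Wt cells at 1419302_at, which gives differences of -0.09 and 1.08. The other tested Heyl probe set, 1438886_at, was at 107.2 and 117.9 in Cyc cells against 121.4 and 86.2 in Wt cells, with -0.16 and 0.39. The log2 fold changes of 0.49 (standard error 0.37) and 0.12 (0.26) did not pass the thresholds. The third, 1419303_at, lay between 24.9 and 37.7 and was not tested.

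**Figure D2:**
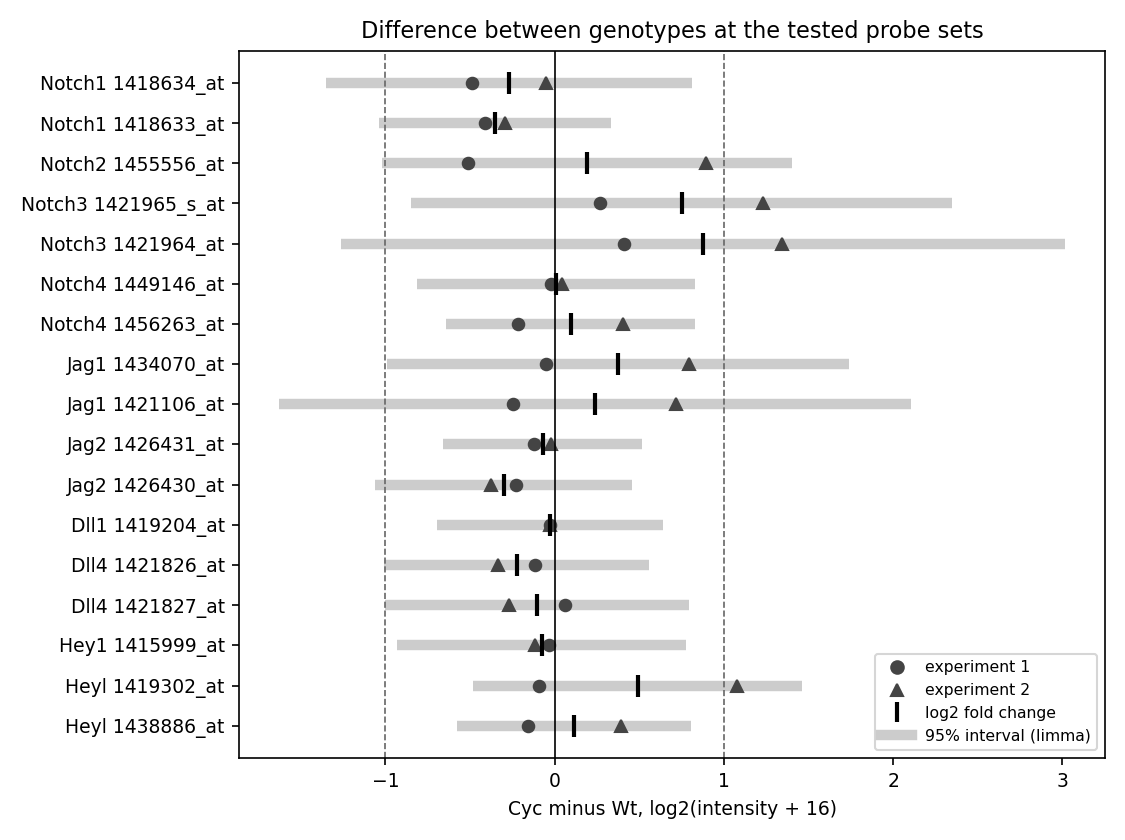
Cyc minus Wt difference on the log2(intensity + 16) scale at the 17 tested probe sets in experiment 1 (circles) and experiment 2 (triangles), with the log2 fold change (bars) and its 95% confidence interval from limma (grey). Only the Notch3 probe sets have both symbols right of 0, and all 17 intervals include 0.

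None of the 17 tested probe sets passed the thresholds, where 0.851% of all 20680 did in limma (152 higher, 24 lower), and none had an unadjusted p under 0.05. With the experiment as a block none passed either, against 1.15% of all, and both Notch3 probe sets had an unadjusted p under 0.05. The genotypes did not overlap at 2 of the 17, Notch1 1418633_at and Jag2 1426431_at, both lower in Cyc cells, against 23.3% of all tested in either direction. Without the Cyc pool of replicate 1, the 4 probe sets of Notch3 and Jag1 were called higher, against 2.81% of all, and no other member was. Both experiments gave a higher value in Cyc cells at 2 of the 17, those of Notch3, and a lower value at 7, while at 8 they differed in sign. After quantile normalization these counts were 4 and 6, since both Heyl probe sets turned to 0.09 and 0.0034 in experiment 1 and Dll1 to 0.04. Over all tested probe sets 26.1% were higher and 29.1% lower in both experiments, and 25.8% and 31.7% after quantile normalization. The median log2 fold change was 0.01 over the 17 and -0.02 over all tested. Probe sets of the same gene mostly went together. In 7 genes with more than 1 tested probe set, the signs were the same in experiment 2 for all 7 and in experiment 1 for 6.

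Most member probe sets, like most of all tested ones, differed more between experiments than between genotypes. At 16 of the 17 probe sets the mean of the pools of experiment 2 was higher than that of experiment 1, with a median log2 difference of 0.48 against 0.28 over all tested probe sets. The share of all tested probe sets that were higher in experiment 2 was not counted. At 14 of the 17 the difference between experiments was larger in size than that between genotypes, as it was in 69.1% of all tested. The widest were at Notch3, with 1.13 at 1421965_s_at and 1.63 at 1421964_at, and at Jag1, with 0.93 at 1434070_at and 1.38 at 1421106_at. Jag1 was brighter in experiment 2 than in experiment 1 by 1.35 and 1.86 in Cyc cells and by 0.50 and 0.90 in Wt cells. The brightest pool was the Cyc pool of replicate 2 at 8 of the 17 probe sets and the Wt pool of replicate 2 at 8. The first 8 belong to Notch2, Notch3, Notch4, Jag1 and Heyl and the second 8 to Notch1, Jag2, Dll1, Dll4 and Hey1. Over all tested probe sets these shares were 44.4% and 30.8%.

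**Figure D3:**
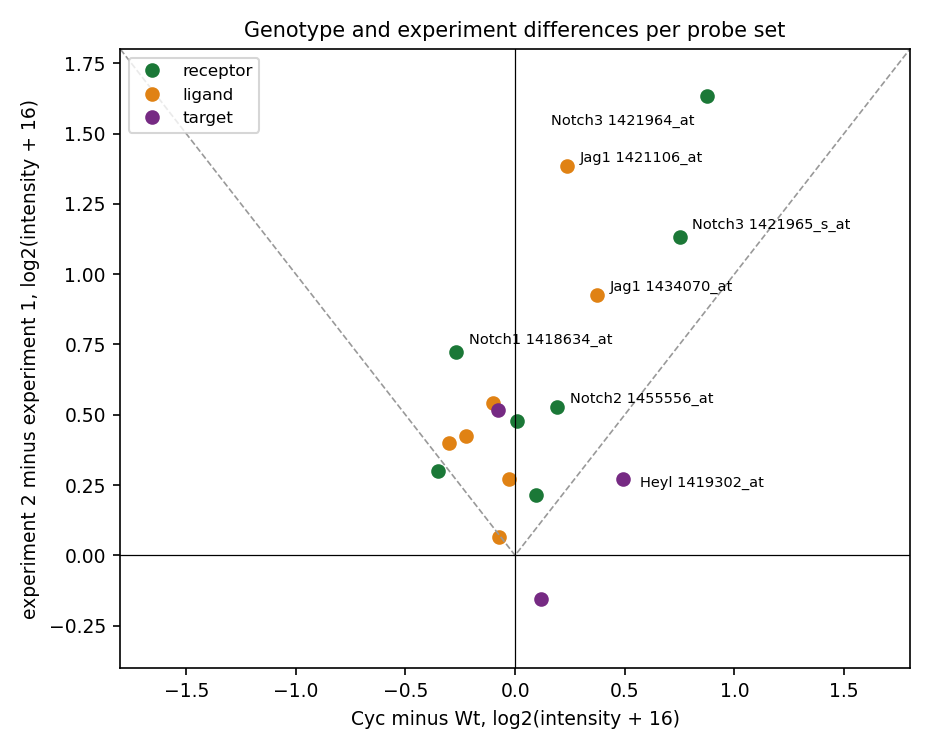
Log2 difference between experiments (experiment 2 minus 1, mean of both genotypes) against that between genotypes (Cyc minus Wt) for the 17 tested probe sets, colored by role. Points between the dashed lines above 0 differ more between experiments than between genotypes, and the Notch3 and Jag1 probe sets lie highest.

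Markers of mural cells had the same order of Cyc and Wt pools within each experiment as Notch3. Of 10 such genes, each at its brightest probe set, 9 could be tested. Kcnj8 and Abcc9, which form a potassium channel of pericytes, rose past the thresholds and 7 did not pass, where 152 of all 20680 tested probe sets rose. All 9 had the higher value in the Cyc pool of both experiments, against 26.1% of all tested probe sets. Their median log2 difference was 0.45 in experiment 1 and 0.85 in experiment 2. Pdgfrb, the receptor that recruits pericytes, was at 1202 and 2944 in Cyc cells against 785.0 and 1204 in Wt cells, and Myh11, a myosin of smooth muscle, at 317.3 and 1716 in Cyc cells against 300.1 and 732.1 in Wt cells. The summed intensity of the list was 15079 and 26832 in the Cyc pools and 12181 and 17126 in the Wt pools, with Cnn1, a calponin of smooth muscle, near background in all. Pdgfrb and Abcc9 are in the study's own list from these arrays. The order was not particular to mural markers. Of fibroblast markers 4 of 8 were higher in Cyc cells in both experiments, and 4 differed in sign. Of 4 tested leukocyte markers 2 were higher in both and 2 differed in sign, and the same counts held for 4 tested epithelial ones. The part of mural cells in the Notch3 and Heyl values was not tested. In such pools fewer cells of a type and less RNA per cell cannot be told apart.

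**Figure D4:**
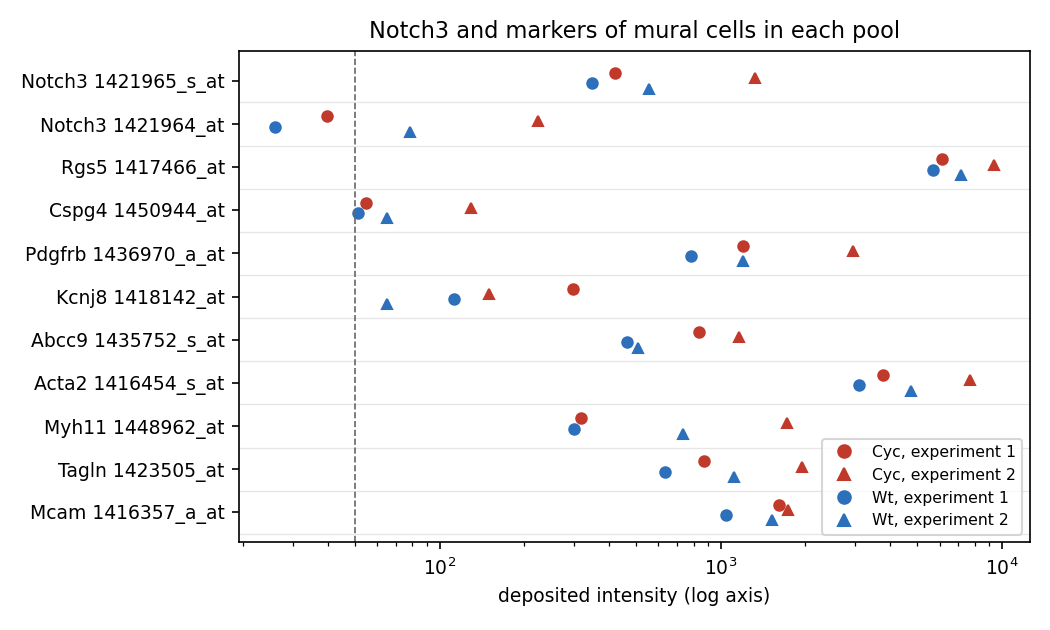
Deposited intensity (log axis) of both Notch3 probe sets and of the 9 tested mural cell markers in each pool, Cyc drawn red and Wt drawn blue, experiment 1 as circles, experiment 2 as triangles and a dashed line at 50. In each experiment the Cyc pool lies right of the Wt pool in every line, and the Cyc pool of replicate 2 is the brightest for all but Kcnj8.

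Markers of endothelium, the cells of Notch1, Notch4, Dll4 and Hey1, were bright in every pool. All 10 genes of the list were tested and none passed the thresholds, with a median log2 fold change of -0.20. In both experiments 8 were lower in Cyc cells, against 29.1% of all tested probe sets, and 1, Erg, was higher. The summed intensity of the list was 40558 and 46286 in Cyc cells against 47724 and 49547 in Wt cells. Among 7 markers of arterial endothelium 6 were tested and none passed, with a median log2 fold change of 0.14. Of these, Gja4 and Sox17 were higher in Cyc cells in both experiments, Nrp1 was lower in both, and Efnb2, Bmx and Unc5b differed in sign. Gja4, a connexin of arteries, had the widest difference, at 1043 and 1533 in Cyc cells against 776.1 and 930.5 in Wt cells, and Gja5 was near background in all pools. The part of the share of endothelial cells in the member values was not tested.

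The Cyc pool of replicate 2, in which Notch2, Notch3, Notch4, Jag1 and Heyl 1419302_at were brightest, also held the highest sums of leukocyte and epithelial markers. The sums of mural, arterial, fibroblast and Schwann cell markers were highest in it too, and those of endothelial and cardiomyocyte markers in Wt pools. It was the brightest pool at 44.4% of all tested probe sets. The summed intensity of 8 leukocyte markers was 1463 there, while Cyc replicate 1 had 452.4 and the Wt pools 442.6 and 321.8. In that list Tyrobp, which is in the study's own list too, rose past the thresholds. It was at 65.5 and 208.4 in Cyc cells against 39.6 and 24.0 in Wt cells. Both Wt values lie near background, so Tyrobp was tested through its Cyc values alone and the size of its rise is uncertain. The leukocyte list held 3 other tested genes, and Cd3e, Cd79a and Itgam were near background in all pools. The sum of 6 markers of airway and alveolar epithelium was 16363 in the Cyc pool of replicate 2, where Scgb1a1 stood at 10195 and Scgb3a2 at 5569. This sum was 364.1 in Cyc replicate 1 and 2694 and 184.0 in the Wt pools, and none of the 4 tested epithelial markers passed. The sum of 8 fibroblast markers was 38634 and 40033 in Cyc cells against 39808 and 24917 in Wt cells, so the pool that stood apart was Wt replicate 2, against which the experiment 2 differences are taken. Col1a1, a collagen chain also in the study's own list, rose past the thresholds in the fit of all 4 pools. Of 8 cardiomyocyte markers 7 were tested. Myl2 and Mb, of the contractile and oxygen-storing machinery and also in the study's own list, fell. In both experiments 5 of the cardiomyocyte markers were lower in Cyc cells, against 29.1% of all tested probe sets. The summed intensity of the cardiomyocyte markers was 2077 and 1878 in Cyc cells against 3520 and 2282 in Wt cells. Of Schwann cell markers 3 were measured and none was tested. The part of all these cells in the values of Notch3 and the other members was not tested.

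The rest of the pathway was read through a list of 54 genes, of which 49 have a probe set with their symbol alone and 41 were tested at the brightest one. None passed the thresholds, and the median log2 fold change was -0.03, beside -0.02 over all tested. With the experiment as a block 1 fell, Dtx4, a ubiquitin ligase of the Deltex family, at 12.5 and 57.8 in Cyc cells against 59.9 and 102.7 in Wt cells (log2 fold change -1.05, unadjusted p = 0.0064 in limma with the block, adjusted p = 0.659). One of these Cyc values, 12.5, lies far under 50, so the size of the change is uncertain. Both experiments gave a higher value in Cyc cells for 10 of the 41 and a lower one for 14, against 26.1% and 29.1% of all tested probe sets.

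Of 7 tested genes of receptor cleavage none passed. Adam10, the protease that makes the first cut after ligand binding, was at 3208 and 4358 in Cyc cells against 3038 and 4068 in Wt cells. Ncstn, a subunit of γ-secretase, which makes the next cut, was at 236.8 and 243.3 in Cyc cells against 328.2 and 430.3 in Wt cells. The log2 fold change of Ncstn was -0.61, with a standard error of 0.25, and did not pass. Psen2, a catalytic subunit of the same complex, lay above both Wt pools in both Cyc pools, at 471.4 and 476.5 against 333.1 and 377.6, and did not pass either. Ncstn and Psen2 were named after their values had been seen.

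Of 5 glycosyltransferase genes that tune ligand binding none passed, and the log2 fold change of Mfng was -0.06, its standard error 0.23. Of 7 tested genes of the nuclear complex none passed, with Kat2b, an acetyltransferase, at a log2 fold change of -0.11 (0.40) and Rbpj at intensities of 375.7 and 783.3 in Cyc cells against 520.6 and 683.8 in Wt cells. The corepressor gene Ctbp1 had a log2 fold change of 0.01 (0.23), and Numb, an inhibitor of Notch among the genes for trafficking and turnover, had -0.25 (0.31). Of the other ligands only Dlk2 was tested, at -0.20 (0.28), while Dll3, Dlk1 and Dner were near background in every pool.

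Further targets were read beside Hey1 and Heyl. Nrarp, a feedback inhibitor that Notch induces, was at 2218 and 2188 in Cyc cells against 1858 and 2368 in Wt cells. Hes1 was at 931.1 and 734.3 in Cyc cells against 824.6 and 1161 in Wt cells, with differences of 0.17 and -0.65 in experiments 1 and 2. Hey2, an arterial and cardiac repressor, was at 47.9 and 162.8 in Cyc cells against 47.0 and 87.7 in Wt cells, again brightest in the Cyc pool of replicate 2. None of the 4 tested targets of this list, Hes1, Hes6, Hey2 and Nrarp, passed. Rbpj, Hes1, Hes6 and Hey2 were named after their values had been seen, and Hes5 and Hes7 were near background in all pools.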

How the data were processed

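Total RNA of freshly isolated Sca-1 cells (4 pools, 250 ng each) was labelled by linear amplification and hybridized to Affymetrix Mouse 430 2.0 arrays. The deposited intensity values, on a linear scale, were normalized by the authors in Resolver 7.2. The background correction and summary method are not given in the sources used here. The Rosetta error model was not run.

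Control probe sets (64) were left out. Negative values were set to 0, a pseudocount of 16 preceded the log2 step, and the 20680 probe sets that reached 50 in 2 arrays were fitted with limma 3.58.1 (R 4.3.3; 2 residual and 2.68 prior degrees of freedom), two-sided, with Benjamini-Hochberg adjustment over all of them, under which the smallest adjusted p was 1. Without adjustment 412 had a p under 0.05 (1443 with the experiment as a block, where 1, a Gnaq probe set, had an adjusted p under 0.05). A call needs a 2-fold difference at an unadjusted p below 0.05 (the thresholds of the study), and none of the calls without the block survives correction. P-values cover only how far these pools vary, which may be technical. The labels number the pools but do not tie equal numbers to 1 experiment, and that pairing rests on the poly-A controls. Arrays with equal numbers deviated together from the genotype means (correlation 0.447 over probe sets, which are not independent).

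Members and lists were chosen with earlier results of these data known. Every member is given with every probe set. Of the pathway list, the rule names genes past the thresholds and, in each role, the gene with the highest probe set intensity, which serves to choose a name and not to compare levels. Other genes of that list are said to be named after their values were seen. Symbols come from the platform annotation. The fit without the block was run on simulated data with independent noise on each array. Those data held no difference between experiments, so the run cannot judge the blocked fit or arrays that deviate together. Alternatives were pseudocounts of 1 and 50, no filter or one at 100, quantile or median scaling, the block, an unmoderated test, an intensity trend, leaving out each pool, the block with a pseudocount of 1 (added after seeing the data) and, for the list, the mean of all probe sets.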

Additional observations from a re-analysis of the deposited data

How the results depend on the processing

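No member passed the thresholds under the alternatives that kept all 4 pools, the replicate block included, except Notch3 1421964_at with the replicate block and a pseudocount of 1 together, a setting chosen after seeing the data (1 higher, log2 fold change 1.05). Leaving out pools gave 0 to 4 members higher in Cyc cells, the 4 without the Cyc pool of replicate 1, and 0 lower. Of 184 log2 fold changes of members under the alternatives with all pools, 181 kept sign and side, and beside that call that of Notch4 1449146_at turned to -0.0067 with quantile normalization, without and with the replicate block. Leaving out 1 pool at a time turned the sign at 13 probe sets, with log2 fold changes of -0.74 to 0.20 (Notch1 1418634_at), -0.42 to 0.81 (Notch2 1455556_at), -0.056 to 1.56 (Notch3 1421965_s_at), -0.18 to 1.93 (Notch3 1421964_at), -0.25 to 0.26 (Notch4 1449146_at), -0.17 to 0.36 (Notch4 1456263_at), -0.30 to 1.05 (Jag1 1434070_at), -0.69 to 1.17 (Jag1 1421106_at), -0.17 to 0.11 (Dll1 1419204_at), -0.49 to 0.041 (Dll4 1421826_at), -0.46 to 0.25 (Dll4 1421827_at), -0.36 to 0.20 (Hey1 1415999_at) and -0.10 to 0.33 (Heyl 1438886_at). Over all probe sets, 152 were higher and 24 lower in Cyc cells. A pseudocount of 1 gave 46 lower, a pseudocount of 50 gave 93 higher, no filter 37 lower, the replicate block 47 lower, the block with quantile normalization 49 lower, the block with a pseudocount of 1 gave 242 higher and 84 lower, and an unmoderated test 47 higher and 7 lower. Leaving out pools gave 117 to 581 higher and 29 to 1050 lower. In the pathway list, where none passed, 1 gene was lower with quantile normalization, median scaling, the replicate block, and the block with quantile normalization or with a pseudocount of 1, and leaving out pools gave 0 to 1 higher and 0 to 2 lower. A lone pool left in a genotype was taken to vary like the pools of the other. Dim probe sets, such as those of Heyl and Notch3 1421964_at, are limited by their signal over background. The causes of these changes were not tested.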
